A study of Saccharomyces cerevisiae with 12 samples.

Results

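The 6 genes described here encode the Kennedy pathway of budding yeast, which makes phosphatidylcholine and phosphatidylethanolamine from choline and ethanolamine. They were chosen by systematic name from the 6685 genes of the expression table. In the order of their steps they are CKI1 (YLR133W) and EKI1 (YDR147W), PCT1 (YGR202C) and ECT1 (YGR007W), and CPT1 (YNL130C) and EPT1 (YHR123W). The rule names them and uses no measured value, but the set was chosen with earlier results of these data known. Poly-A RNA was sequenced from 12 libraries, 2 for each of 6 groups. The cho2 strain carries a KanMX deletion of CHO2, and it was set against a wild-type (WT) strain; both are CEN.PK cells of mating type a. Each strain was sampled in logarithmic growth in YPL, where lactate (2%) stood beside peptone (2%) and yeast extract (1%), and again 1 h and 3 h after cells were washed into SL at an A600 of 1.0. SL was a minimal medium with lactate (2%), ammonium sulfate (0.5%) and nitrogen base (0.17%), without amino acids. The groups are therefore cho2 and WT in YPL, at 1 h in SL and at 3 h in SL. The labels give no choline or ethanolamine content for either medium. Cells left in YPL for 1 h or 3 h were not among the samples, so medium, washing and time cannot be told apart in any comparison of SL with YPL.

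Cells reach phosphatidylcholine by either of 2 routes. In the CDP-diacylglycerol route, phosphatidylethanolamine is methylated, with the Cho2 methyltransferase acting first and Opi3 after it. In the Kennedy pathway a kinase phosphorylates choline or ethanolamine, a cytidylyl transferase activates the product with CTP, and a phosphotransferase joins the head group to diacylglycerol. CKI1, PCT1 and CPT1 encode the 3 choline steps, and EKI1, ECT1 and EPT1 the 3 ethanolamine steps. The 2 kinases and the phosphotransferase encoded by EPT1 are known to accept both substrates in part. The choline branch is known as a route by which cells without Cho2 can make phosphatidylcholine, using choline from the medium or from lipid turnover.

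Values are normalised read counts as the authors deposited them, and differences are log2 ratios ± SE from a limma fit over all 6546 genes that passed a filter on low values. All 6 Kennedy pathway genes passed that filter, with 10 or more in each of the 12 libraries. A gene was called where its Benjamini-Hochberg adjusted p, taken over all tested genes, was under 0.05. The libraries held 9169832 to 12489334 reads, except for the second WT library at 3 h with 3166868. Each Kennedy pathway gene had between 152 and 4870 reads in a library. Of the 2 cho2 libraries at 3 h, the second was low for most genes: its median gene was -0.34 log2 from the mean over libraries, where the remaining 11 ranged over -0.07 to 0.17. CHO2 itself stood between 3.77 and 9.19 in the cho2 libraries, against 1570 to 4065 in the WT libraries. The summed level of 3 a-cell genes (MFA1, MFA2 and STE2) was 2211 to 3691 in the cho2 libraries and 1875 to 2952 in the WT libraries. That of 3 alpha-cell genes was 155 to 403 in the cho2 libraries and 133 to 235 in the WT libraries, with 0 of the 3 at 0 in any library, and its part in the results was not tested.

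None of the 6 genes overlaps another gene in the R64 annotation, whose assembly is not the sacCer2 build used by the authors. CPT1 and EPT1 each have 2 coding parts separated by an intron. Their coding sequences were the closest pair, with 67.8% identity over 500 aligned bases. A nucleotide search of the coding sequences gave no match for CKI1, EKI1, PCT1 or ECT1, though such a search can miss more distant relatives. The differences below therefore do not rest on genes that share reads with a near-identical copy in R64.

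**Figure D1:**
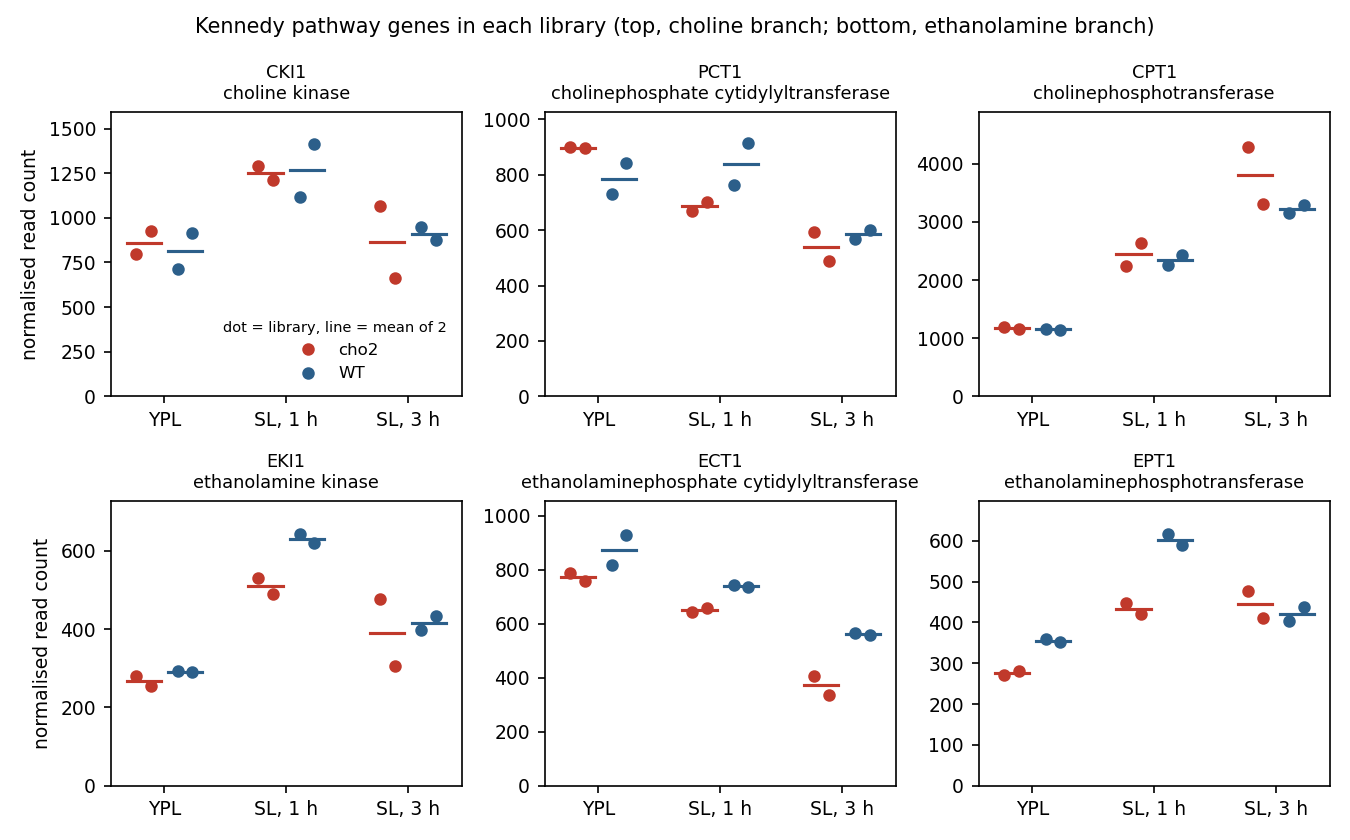
Normalised read count of the 6 Kennedy pathway genes in each library, with the choline branch above and the ethanolamine branch below; dots are libraries and lines are means of 2, cho2 left of WT at each time (YPL, then 1 h and 3 h in SL). CPT1 climbs at each step in both strains, PCT1 and ECT1 are lowest at 3 h, and EKI1 and EPT1 in WT peak at 1 h.

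The kinase and phosphotransferase genes rose in the first hour in SL, and the cytidylyl transferase genes were below their YPL levels at 3 h. At 1 h, CKI1, EKI1, CPT1 and EPT1 were higher than in YPL in both strains. PCT1 and ECT1 were not called at 1 h by limma with the deposited scaling, whereas with TMM scaling, and by DESeq2, both were called lower in cho2 and ECT1 lower in WT. At 3 h, CPT1 was 3.21 times its YPL level in cho2 and 2.77 times in WT, and PCT1 and ECT1 were lower in both strains. As these are bulk samples, less RNA per cell and fewer cells that express a gene cannot be told apart.

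In cho2 at 1 h, 4 of the 6 genes were higher and 0 lower than in YPL, where 25.2% of all tested genes were higher and 24.6% lower. With TMM scaling in limma the cho2 counts were 4 higher and 2 lower (PCT1 at -0.45 and ECT1 at -0.31, limma adjusted p = 0.00441 and 0.0201), against 27.3% and 30.4% of all tested genes, and edgeR with TMM and DESeq2 also called both genes lower. In WT at 1 h the counts were also 4 higher and 0 lower, against 33.7% and 23.8% of all tested genes. With TMM scaling in limma they were 4 higher and 1 lower in WT (ECT1 at -0.39, limma adjusted p = 0.00522), against 30.2% and 31.8%, and edgeR with TMM and DESeq2 called ECT1 lower as well. In cho2 at 3 h, 3 of the 6 were higher and 2 lower, against 19.8% and 37% of all tested genes (29.2% and 35.4% after TMM scaling, 34.3% and 29.5% after quantile normalisation). In WT at 3 h, 2 were higher and 2 lower with the deposited scaling, against 22.9% and 30.8%. After quantile normalisation the shares of all tested genes were 33.9% and 28.2%. There EPT1 was called higher as well (0.39, limma adjusted p = 0.00887) and PCT1 was not called (-0.24, limma adjusted p = 0.077). With TMM scaling EPT1 was also called higher in WT (0.28, limma adjusted p = 0.0463), against shares of 29.1% and 33.4%. The median difference of the 6 genes was 0.59 in cho2 and 0.70 in WT at 1 h, and 0.24 in cho2 and 0.21 in WT at 3 h. Over all tested genes the medians were 0.05 in cho2 and 0.18 in WT at 1 h, and -0.18 in cho2 and -0.08 in WT at 3 h. TMM scaling moved the median of all genes in WT at 1 h to 0.03, and quantile normalisation moved those at 3 h to 0.07 in cho2 and 0.07 in WT. The 1 h and 3 h comparisons of a strain share its YPL libraries, so they are not independent of each other.

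**Figure D2:**
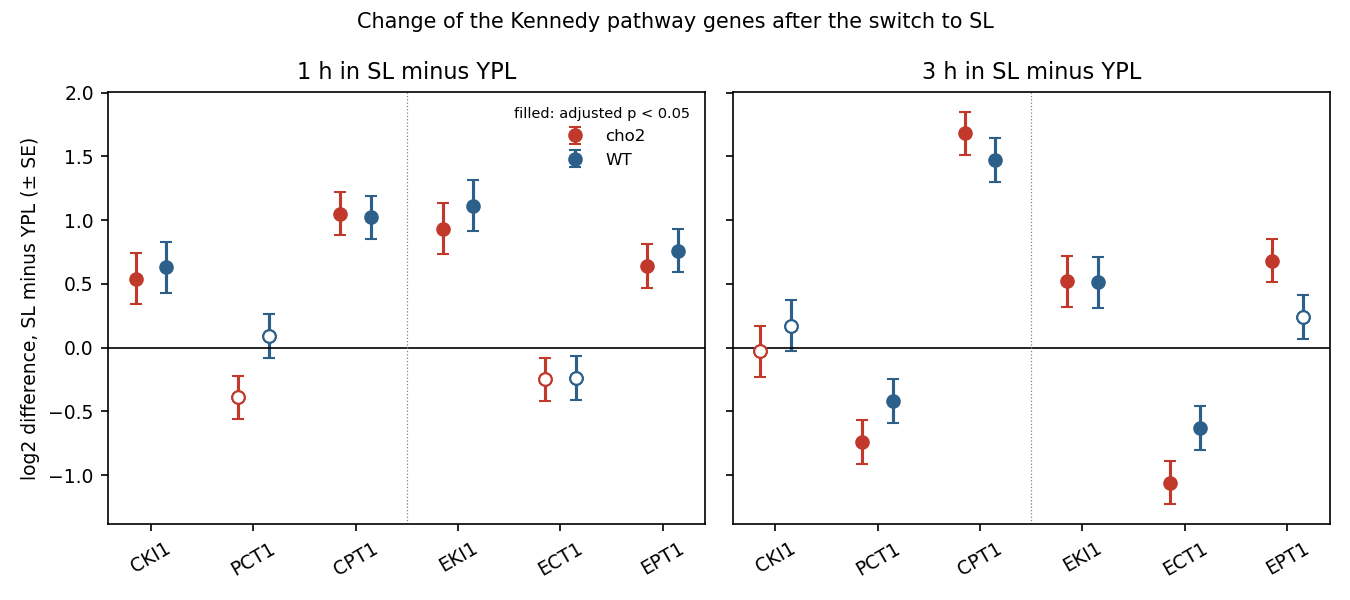
Log2 difference from YPL (± SE) for each gene at 1 h (left) and 3 h (right) in SL, cho2 left of WT; filled points have a limma adjusted p under 0.05, and the dotted line separates the choline branch from the ethanolamine branch. CPT1 has the largest rise of the 6 at 3 h (1.68 in cho2, 1.47 in WT) and ECT1 the largest fall (-1.06 in cho2, -0.63 in WT).

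CKI1 encodes choline kinase, the entry step of the choline branch. Its 2 libraries held 797 and 926 in cho2 in YPL, 1288 and 1213 at 1 h, and 1069 and 663 at 3 h. In WT they held 715 and 918 in YPL, 1118 and 1413 at 1 h, and 947 and 875 at 3 h. In each strain both 1 h libraries lay above both YPL libraries, while the 3 h libraries overlapped those in YPL. CKI1 rose at 1 h by 0.54 ± 0.20 in cho2 (limma adjusted p = 0.03) and by 0.63 ± 0.20 in WT (limma adjusted p = 0.0106). The call in cho2 was lost without its first YPL library (0.43, adjusted p = 0.203) or either 1 h library (0.50 and 0.58, adjusted p = 0.141 and 0.078), and that in WT without the first YPL library (0.45, adjusted p = 0.128) or the second 1 h library (0.46, adjusted p = 0.127). At 3 h the difference from YPL was -0.03 ± 0.20 in cho2 (95% interval -0.45 to 0.39) and 0.17 ± 0.20 in WT (-0.25 to 0.59).

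EKI1 encodes ethanolamine kinase and showed the larger response of the 2 kinase genes at 1 h. The cho2 libraries held 279 and 254 in YPL, 530 and 490 at 1 h, and 476 and 306 at 3 h. The WT libraries held 292 and 291 in YPL, 642 and 619 at 1 h, and 398 and 433 at 3 h. Every SL library lay above both YPL libraries of its strain. EKI1 rose at 1 h by 0.93 ± 0.20 in cho2 (1.91-fold, limma adjusted p = 0.00033) and by 1.11 ± 0.20 in WT (2.16-fold, limma adjusted p = 3.9e-05), and both calls held in all 23 alternative settings. At 3 h it was still higher than in YPL, by 0.52 ± 0.20 in cho2 (limma adjusted p = 0.028) and by 0.51 ± 0.20 in WT (limma adjusted p = 0.0321). Without the first cho2 library at 3 h, the higher of that pair, the cho2 value was 0.20 (adjusted p = 0.238); it also failed without the first or second cho2 YPL library (0.58 and 0.45, adjusted p = 0.0682 and 0.161) and in a fit of the compared groups alone (adjusted p = 0.0938). The WT value at 3 h failed without any 1 of the 4 libraries it compares (0.45 to 0.57, adjusted p from 0.0549 to 0.13).

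PCT1 encodes cholinephosphate cytidylyl transferase, which makes CDP-choline. In cho2 its libraries held 899 and 896 in YPL, 669.8 and 702 at 1 h, and 592 and 488 at 3 h. In WT they held 729.6 and 841 in YPL, 763 and 913 at 1 h, and 567 and 601 at 3 h. The cho2 libraries at 1 h already lay below those in YPL, whereas the WT libraries overlapped. The 1 h difference was -0.39 ± 0.17 in cho2 (limma adjusted p = 0.0663) and 0.09 ± 0.17 in WT (limma adjusted p = 0.665). The cho2 value passed in 8 of the 23 alternatives, TMM scaling among them (-0.45, adjusted p = 0.00441). At 3 h PCT1 fell by 0.74 ± 0.17 in cho2 (limma adjusted p = 0.00083), which held in all 23 settings. In WT it fell by 0.42 ± 0.17 (limma adjusted p = 0.0424), a call lost with quantile normalisation (-0.24, adjusted p = 0.077) and on leaving out any 1 of the YPL, 1 h or WT 3 h libraries (adjusted p from 0.0521 to 0.264).

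ECT1 encodes ethanolaminephosphate cytidylyl transferase, the matching step of the ethanolamine branch. The cho2 libraries held 786 and 759 in YPL, 642 and 656 at 1 h, and 406 and 338 at 3 h. The WT libraries held 817 and 929.7 in YPL, 744 and 736 at 1 h, and 564 and 558 at 3 h. In both strains the 3 times did not overlap, with YPL highest and 3 h lowest. At 1 h the differences from YPL were -0.25 ± 0.17 in cho2 (limma adjusted p = 0.231) and -0.24 ± 0.17 in WT (limma adjusted p = 0.238). With TMM scaling they were called, at -0.31 in cho2 (adjusted p = 0.0201) and -0.39 in WT (adjusted p = 0.00522). At 3 h ECT1 fell by 1.06 ± 0.17 in cho2 (limma adjusted p = 9.8e-06, held in all 23 settings) and fell by 0.63 ± 0.17 in WT (limma adjusted p = 0.00283). The WT call was lost without the second WT library in YPL (-0.54, adjusted p = 0.0509).

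CPT1 encodes cholinephosphotransferase, the last step to phosphatidylcholine, and changed most of the 6 over the study. Its libraries in cho2 held 1185 and 1161 in YPL, 2245 and 2636 at 1 h, and 4296 and 3315 at 3 h. In WT they held 1167 and 1149 in YPL, 2265 and 2425 at 1 h, and 3145 and 3282 at 3 h. The 3 times did not overlap in either strain. CPT1 rose at 1 h by 1.05 ± 0.17 in cho2 (2.07-fold, limma adjusted p = 9.9e-06) and by 1.02 ± 0.17 in WT (2.02-fold, limma adjusted p = 1.4e-05). At 3 h it was higher than in YPL by 1.68 ± 0.17 in cho2 (limma adjusted p = 6.2e-09) and by 1.47 ± 0.17 in WT (limma adjusted p = 5.8e-08). All 4 of these calls held in the 23 alternative settings, where the 3 h values ranged over 1.50 to 1.98 in cho2 and 1.44 to 1.63 in WT.

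EPT1 encodes ethanolaminephosphotransferase, the last ethanolamine step. The cho2 libraries held 272 and 281 in YPL, 447 and 419.75 at 1 h, and 478 and 412 at 3 h. The WT libraries held 359 and 353 in YPL, 618 and 589 at 1 h, and 403 and 439 at 3 h. In cho2 the 1 h and 3 h libraries overlapped, whereas in WT both 3 h libraries lay below both 1 h libraries. EPT1 rose at 1 h by 0.64 ± 0.17 in cho2 (limma adjusted p = 0.00349) and by 0.76 ± 0.17 in WT (limma adjusted p = 0.00068). The cho2 call at 1 h was lost without its first 1 h library (0.60, adjusted p = 0.0551). At 3 h the gene was higher than in YPL by 0.68 ± 0.17 in cho2 (limma adjusted p = 0.00192, held in all 23 settings), and the difference in WT was 0.24 ± 0.17 (limma adjusted p = 0.254). The WT value was called after TMM scaling (0.28, adjusted p = 0.0463) and after quantile normalisation (0.39, adjusted p = 0.00887).

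Between 1 h and 3 h in SL, CPT1 was the 1 gene of the 6 called higher in either strain. In cho2, 1 of the 6 was higher at 3 h than at 1 h and 2 were lower, against 7.99% and 23.8% of all tested genes. In WT, 1 was higher and 3 were lower, against 11.1% and 25.5%. Those shares depend on scaling: with TMM they were 20% and 19.8% in cho2 and 20.9% and 19.8% in WT, and the median of all genes moved to 0.03 in cho2 and -0.02 in WT, against -0.16 in cho2 and -0.21 in WT with the deposited scaling. CPT1 rose by 0.63 ± 0.17 in cho2 (limma adjusted p = 0.00496, lost without the first 1 h library at 0.52, adjusted p = 0.121). In WT it rose by 0.45 ± 0.17 (limma adjusted p = 0.0346), a call lost on leaving out any 1 of 8 libraries (0.41 to 0.50, adjusted p from 0.0559 to 0.157). These 8 were both cho2 libraries in YPL and both at 1 h, and both WT libraries at 1 h and both at 3 h.

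ECT1 fell by 0.81 ± 0.17 from 1 h to 3 h in cho2 (limma adjusted p = 0.00066), and its difference in WT was -0.40 ± 0.17 (limma adjusted p = 0.0674). CKI1 fell by 0.57 ± 0.20 in cho2 (limma adjusted p = 0.0349), but the value was -0.23 without the second cho2 library at 3 h (adjusted p = 0.385) and -0.38 with TMM scaling (adjusted p = 0.0603). It was also lost without the first or second cho2 library at 1 h (-0.53 and -0.61, adjusted p = 0.178 and 0.1). In WT the genes that fell were EKI1 (-0.60 ± 0.20), PCT1 (-0.52 ± 0.17) and EPT1 (-0.52 ± 0.17; limma adjusted p = 0.0194, 0.0224 and 0.0222). Each of these WT calls was lost on leaving out the first WT library at 3 h (-0.54 for EKI1, -0.47 for PCT1 and -0.46 for EPT1, adjusted p = 0.0963, 0.105 and 0.116) or the second WT library at 1 h (-0.63, -0.39 and -0.55, adjusted p = 0.0788, 0.234 and 0.0931). EKI1 and EPT1 were lost without the first WT library at 1 h as well (-0.57 and -0.49, adjusted p = 0.0882 and 0.119), and PCT1 without the second at 3 h (-0.56, adjusted p = 0.055). DESeq2 called neither PCT1 nor EPT1 in this WT comparison (-0.32 each, adjusted p = 0.0577 and 0.0705).

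Between cho2 and WT, 1 of the 6 genes passed the threshold at 1 of the 3 times, ECT1 at 3 h in SL. In YPL 0 of the 6 genes were called between cho2 and WT, where 0.412% of all tested genes were. At an unadjusted p under 0.05 there was 1, EPT1, and edgeR called 0 with either scaling and DESeq2 0. At 1 h in SL limma called 0 of the 6, against 9.23% of all tested genes, with 1 at an unadjusted p under 0.05; edgeR called 0 with the deposited scaling and 1 with TMM, and DESeq2 called 1. At 3 h 0 of the 6 were higher and 1 was lower in cho2, against 0.611% and 2.83% of all tested genes (1.83% and 3.61% with TMM, 2% and 2.9% with quantile normalisation).

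The choline branch gave no called strain difference at any of the 3 times. For CPT1 the difference was 0.02 in YPL (95% interval -0.32 to 0.36), 0.05 at 1 h (-0.29 to 0.40) and 0.23 at 3 h (-0.11 to 0.58). The 2 cho2 libraries at 3 h, at 4296 and 3315, lay above the WT libraries at 3145 and 3282. For CKI1 the differences were 0.08, -0.01 and -0.11 in the same order, with intervals that reached from -0.53 to 0.50 over the 3 times. For PCT1 they were 0.20 in YPL (-0.16 to 0.55), -0.28 at 1 h (-0.64 to 0.07) and -0.12 at 3 h (-0.48 to 0.24).

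**Figure D3:**
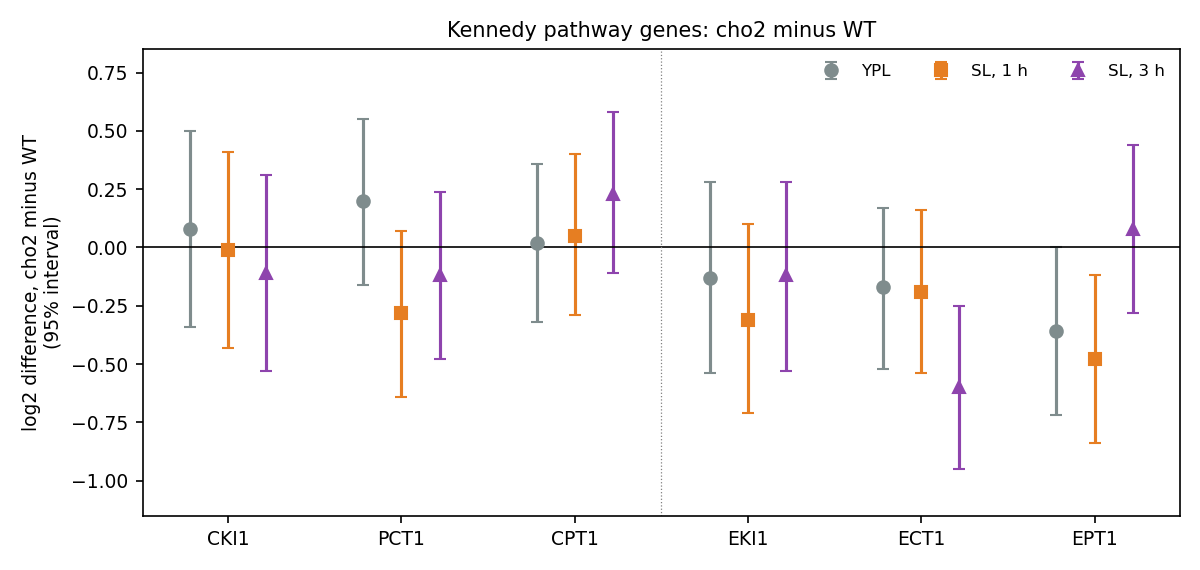
Log2 difference between cho2 and WT (cho2 minus WT, with 95% intervals from the limma fit) for each gene in YPL, at 1 h and at 3 h in SL. The interval of ECT1 at 3 h (-0.95 to -0.25) and that of EPT1 at 1 h (-0.84 to -0.12) lie below 0, that of EPT1 in YPL (-0.72 to -0.00) ends at 0, and ECT1 at 3 h is the 1 difference that passed the adjusted threshold.

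The ethanolamine branch held the strain differences that came closest to the threshold or passed it. ECT1 stood at 372 ± 48.4 in cho2 and 561 ± 3.81 in WT at 3 h (SD, n = 2 each), with a log2 difference of -0.60 ± 0.17 (limma adjusted p = 0.0493), with 406 and 338 in the cho2 libraries and 564 and 558 in the WT libraries. This call sat at the threshold. It was lost with a pseudocount of 5 (adjusted p = 0.0501), with no filter (adjusted p = 0.0517), with the 2 groups fitted alone (adjusted p = 0.823) and on leaving out any 1 library but the first cho2 library at 3 h (-0.47 without the second cho2 library at 3 h, adjusted p = 0.0643; -0.61 to -0.59 and adjusted p from 0.0604 to 0.166 for the other 10). In YPL and at 1 h the ECT1 differences were -0.17 ± 0.17 and -0.19 ± 0.17, neither of them called.

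EPT1 was lower in both cho2 libraries than in both WT libraries in YPL and at 1 h, although neither difference passed the adjusted threshold. In YPL EKI1 and ECT1 were separated in the same way and PCT1 in the other direction, and at 1 h EKI1, PCT1 and ECT1 also lay lower in cho2. An exact permutation test of 2 libraries against 2 cannot give a 2-sided p below 0.333. The share of all genes so separated was not counted, and the same limits apply to CPT1 at 3 h. In YPL it averaged 277 ± 6.23 in cho2 and 356 ± 4.27 in WT (SD, n = 2 each; log2 -0.36 ± 0.17, limma adjusted p = 0.714). At 1 h it averaged 433 ± 18.9 in cho2 and 603 ± 20.3 in WT (log2 -0.48 ± 0.17, limma adjusted p = 0.0945). The 1 h difference was called in 8 of the 23 alternatives, including TMM scaling (-0.41, adjusted p = 0.03), DESeq2 (-0.40, adjusted p = 0.0285) and both second 3 h libraries left out (-0.48, adjusted p = 0.00996). At 3 h the libraries of the strains overlapped (0.08 ± 0.17). For EKI1 the differences were -0.13 in YPL, -0.31 at 1 h and -0.12 at 3 h, with 95% intervals of -0.54 to 0.28, -0.71 to 0.10 and -0.53 to 0.28.

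Whether the strains responded differently to SL was tested as an interaction, the change in cho2 minus the change in WT. At 1 h 0 of the 6 genes were called by limma, against 3.61% of all tested genes, and at 3 h 0 of the 6, against 0.703%. At both times 0 had an unadjusted p under 0.05, and edgeR and DESeq2 called 0. The values furthest from 0 were those of PCT1 at 1 h (-0.48 ± 0.24, limma adjusted p = 0.397), EPT1 at 3 h (0.44 ± 0.25, limma adjusted p = 0.672) and ECT1 at 3 h (-0.42 ± 0.24, limma adjusted p = 0.672). The 3 h changes of ECT1 and EPT1 in cho2 were therefore not distinguished from those in WT by this test. For CPT1 the interaction was 0.04 at 1 h (95% interval -0.45 to 0.52) and 0.21 at 3 h (-0.27 to 0.70).

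RNA levels of the branches were compared within each library as the ratio of the choline gene to the ethanolamine gene at the same step. Normalised counts were taken per kilobase of coding length, and the ratios do not measure the activity of either branch. At the kinase step CKI1 exceeded EKI1 in every library. The CKI1 to EKI1 ratios in cho2 were 2.62 and 3.34 in YPL, 2.23 and 2.27 at 1 h, and 2.06 and 1.99 at 3 h. In WT they were 2.25 and 2.89 in YPL, 1.6 and 2.1 at 1 h, and 2.18 and 1.85 at 3 h. In both strains the SL libraries had lower ratios than the YPL libraries of that strain.

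At the cytidylyl transferase step the 2 genes stood closer together. The PCT1 to ECT1 ratios in cho2 were 0.871 and 0.901 in YPL, 0.795 and 0.815 at 1 h, and 1.11 and 1.1 at 3 h. In WT they were 0.681 and 0.689 in YPL, 0.782 and 0.946 at 1 h, and 0.767 and 0.821 at 3 h. The cho2 libraries had the higher ratios in YPL and at 3 h, and at 3 h they were the 2 libraries in the study with PCT1 above ECT1. At 1 h the strains overlapped.

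At the phosphotransferase step the ratio was higher than at the other steps in every library. The CPT1 to EPT1 ratios in cho2 were 4.33 and 4.11 in YPL, 5 and 6.25 at 1 h, and 8.94 and 8.01 at 3 h. In WT they were 3.24 and 3.24 in YPL, 3.65 and 4.1 at 1 h, and 7.77 and 7.44 at 3 h. At each of the 3 times both cho2 libraries had higher ratios than both WT libraries, and the ratio was highest at 3 h in both strains. These strain comparisons are descriptions: an exact permutation test of 2 libraries against 2 cannot give a 2-sided p below 0.333.

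**Figure D4:**
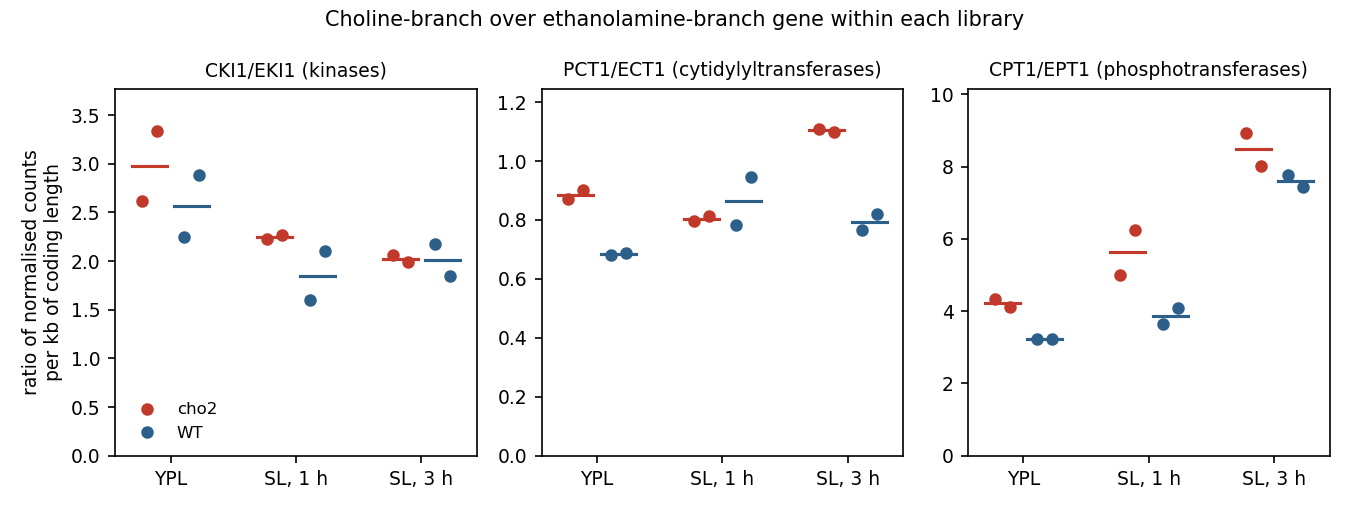
Ratio of the choline-branch gene to the ethanolamine-branch gene at each step, as normalised counts per kilobase of coding length within a library; dots are libraries and lines are means of 2, cho2 left of WT. The CPT1 to EPT1 ratio reaches 8.94 and 8.01 in cho2 and 7.77 and 7.44 in WT at 3 h, and PCT1 to ECT1 is above 1 in the 2 cho2 libraries at 3 h.

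On the scale of normalised counts per kilobase, CPT1 had the highest level of the 6 in each of the 6 groups and EKI1 the lowest. In YPL both strains had the same order, CPT1, ECT1, PCT1, CKI1, EPT1 and EKI1, and the libraries of neighbouring genes did not overlap at any place in it. In YPL CPT1 stood at 993 ± 14.2 per kilobase in cho2 and 979.8 ± 10.8 in WT, and EKI1 at 166 ± 10.9 in cho2 and 182 ± 0.437 in WT (SD, n = 2 each). At 1 h in WT the libraries of CKI1 overlapped those of ECT1 and of PCT1, while ECT1 lay above PCT1, and in cho2 all neighbours were apart, with CKI1 in the second place. At 3 h in cho2, CKI1, PCT1, ECT1 and EPT1 overlapped from each place to the next, between 495 ± 164 and 378 ± 39.8 per kilobase. In WT at 3 h the order was CPT1, ECT1, CKI1, PCT1, EPT1 and EKI1, with no overlap between neighbours.

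Among the 5908 genes with a coding length in the R64 table, CPT1 lay above 69.5% in cho2 and 69.9% in WT in YPL. It lay above 85.5% in cho2 and 85.7% in WT at 1 h, and above 90.8% in cho2 and 88.6% in WT at 3 h. At 3 h its level per kilobase was 3219 ± 587 in cho2 and 2719 ± 82.3 in WT. EKI1 lay above 14.4% of genes in cho2 and 16.1% in WT in YPL, and above 32.6% in cho2 and 36.7% in WT at 1 h. ECT1 lay above 63.6% in cho2 and 67.7% in WT in YPL, and above 45% in cho2 and 58.1% in WT at 3 h.

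Across the 12 libraries the lowest and highest values of a gene differed by 1.87-fold for PCT1, 2.13-fold for CKI1, 2.27-fold for EPT1, 2.53-fold for EKI1, 2.75-fold for ECT1 and 3.74-fold for CPT1. Likeness of pattern was measured as the root mean square difference of log2 values over the 12 libraries, with each gene centred on its own mean. Within the pathway EKI1 and EPT1 were the closest pair (0.196), followed by PCT1 and ECT1 (0.217) and by CKI1 and EKI1 (0.271), and CPT1 and ECT1 were furthest apart (1.025). Many genes outside the pathway were closer still, out of 5147 candidates for each gene. The 3 closest to CKI1 were CEG1 (0.081), CDC1 (0.085) and PDE1 (0.090), and those to EKI1 were SIP3 (0.099), RAD24 (0.102) and DFR1 (0.109). PCT1 was closest to NAB6 (0.064), CPS1 (0.081) and SWC4 (0.084), and ECT1 to PRP19 (0.092), HEM1 (0.098) and PTC2 (0.106). CPT1 had no neighbour as close, with YIM1 (0.144), RAD7 (0.149) and SKN1 (0.158), and EPT1 had ACF2 (0.102), OSI1 (0.114) and SNU56 (0.117). These are descriptions over libraries of 6 groups, and EPT1 and EKI1 had 100 or more other genes closer to each than they were to each other.

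Genes that bring choline and ethanolamine to the pathway, or release them from lipids, were followed in a list of 11. Of all tested genes, limma called 0.412% between cho2 and WT in YPL and 9.23% at 1 h, and 0.611% higher and 2.83% lower at 3 h. It called 0 of the 11 in YPL, 0 at 1 h and 0 at 3 h, where 1, 1 and 2 had an unadjusted p under 0.05. At these times edgeR, with either scaling, and DESeq2 each called 1, 1 and 0. The gene called in YPL was GIT1, lower in cho2 (limma -0.85 ± 0.22, adjusted p = 0.118, and DESeq2 -0.87, adjusted p = 1.7e-05). The gene called at 1 h was NTE1, lower in cho2 (limma -0.55 ± 0.18, adjusted p = 0.0547, and DESeq2 -0.47, adjusted p = 0.014). After the switch, 3 of the 11 were higher and 3 lower in cho2 at 1 h, and 4 higher and 1 lower in WT. At 3 h the counts were 5 higher and 4 lower in cho2, and 6 higher and 3 lower in WT. Of all tested genes, 25.2% were higher and 24.6% lower in cho2 and 33.7% and 23.8% in WT at 1 h, and 19.8% and 37% in cho2 and 22.9% and 30.8% in WT at 3 h. HNM1, the permease for choline and ethanolamine, stood at 977 ± 39.3 in YPL, 1185 ± 40.2 at 1 h and 1767 ± 135 at 3 h in cho2, and at 1219 ± 156, 1431 ± 325 and 1630 ± 193 in WT (SD, n = 2 each). Its rise from YPL to 3 h was called in cho2 (0.85 ± 0.18, limma adjusted p = 0.00027), and the WT value was 0.42 ± 0.18 (limma adjusted p = 0.0515), which was called with TMM scaling (0.46, adjusted p = 0.0322) and by DESeq2 (0.48, adjusted p = 0.0158).

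The largest change in this list was that of GIT1, which encodes a transporter of glycerophosphodiesters such as glycerophosphocholine. At 1 h it fell by 4.03 ± 0.22 in cho2 (78.9 ± 4.4 in SL against 1310.2 ± 111 in YPL) and fell by 4.84 ± 0.22 in WT (81.3 ± 6.22 in SL against 2356 ± 104 in YPL). GPC1, for the acyltransferase that returns glycerophosphocholine to lipid, rose at 1 h by 1.50 ± 0.21 in cho2 and by 2.05 ± 0.21 in WT (limma adjusted p = 1.4e-06 and 7.4e-09). GDE1, whose product splits glycerophosphocholine to choline, rose at 1 h by 0.66 ± 0.17 in cho2 (limma adjusted p = 0.00249) and by 0.49 ± 0.17 in WT (limma adjusted p = 0.0177). NTE1, for a phospholipase that deacylates phosphatidylcholine in the cell, fell by 0.96 ± 0.18 at 1 h in cho2 (limma adjusted p = 8.1e-05), with -0.27 in WT. The WT value was not called by limma with the deposited scaling. It was called lower with TMM scaling in limma (-0.42, adjusted p = 0.0107) and by DESeq2 (-0.41, adjusted p = 0.00912). ALE1, for a lysophospholipid acyltransferase, was higher at 3 h than in YPL by 0.69 in cho2 and by 0.81 in WT. The GDE1 call in WT was lost without any 1 of its 4 libraries (adjusted p up to 0.097).

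The second list held 9 genes for diacylglycerol and CTP, the substrates that the last steps consume. At 1 h, 2 were higher and 1 lower than in YPL in cho2, and 6 higher and 1 lower in WT, against all-gene shares of 25.2% and 24.6% in cho2 and 33.7% and 23.8% in WT. URA7, for the main CTP synthase, at 1 h fell by 2.22 ± 0.22 in cho2 and fell by 3.45 ± 0.22 in WT (limma adjusted p = 6.1e-09 and 1.9e-12). It stood at 283 ± 2.95 in cho2 and 151 ± 25.5 in WT at 1 h, a strain difference of 0.91 ± 0.22 (limma adjusted p = 0.00814), and its interaction was 1.23 ± 0.31 (limma adjusted p = 0.0235). LPP1, for a lipid phosphate phosphatase, stood at 289 ± 17.7 in cho2 and 603 ± 47.3 in WT at 1 h (strain difference -1.06 ± 0.18, limma adjusted p = 0.00038; interaction -0.91 ± 0.26, limma adjusted p = 0.0473). The URA7 strain difference was lost without either cho2 library at 1 h or the second WT library at 1 h (adjusted p up to 0.108), and its interaction without any 1 YPL or 1 h library but the first WT ones (adjusted p up to 0.134). The LPP1 interaction was lost with no filter and without any 1 YPL or 1 h library (adjusted p up to 0.291).

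At 3 h, 3 of these 9 genes were higher and 4 lower than in YPL in cho2, and 2 higher and 2 lower in WT, where 19.8% and 37% of all tested genes were in cho2 and 22.9% and 30.8% in WT. PAH1, for the phosphatidate phosphatase that makes diacylglycerol, fell by 0.97 ± 0.18 in cho2 (limma adjusted p = 6.7e-05) and fell by 0.44 ± 0.18 in WT (limma adjusted p = 0.0438, lost in 12 of the 23 settings). DGK1, for the diacylglycerol kinase that acts in the other direction, rose by 0.76 ± 0.18 in cho2 and by 0.89 ± 0.18 in WT (limma adjusted p = 0.00077 and 0.00017). URA8, for the other CTP synthase, fell by 1.06 ± 0.19 in cho2 (limma adjusted p = 5e-05), with -0.34 in WT. Between cho2 and WT, limma called 0.412% of all tested genes in YPL, and 0.611% higher and 2.83% lower at 3 h. It called 0 of these 9 genes in YPL and 0 at 3 h, where 0 and 1 had an unadjusted p under 0.05. In YPL edgeR and DESeq2 called 0; at 3 h edgeR called 0 with the deposited scaling and 1 with TMM, and DESeq2 called 1.

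**Figure D5:**
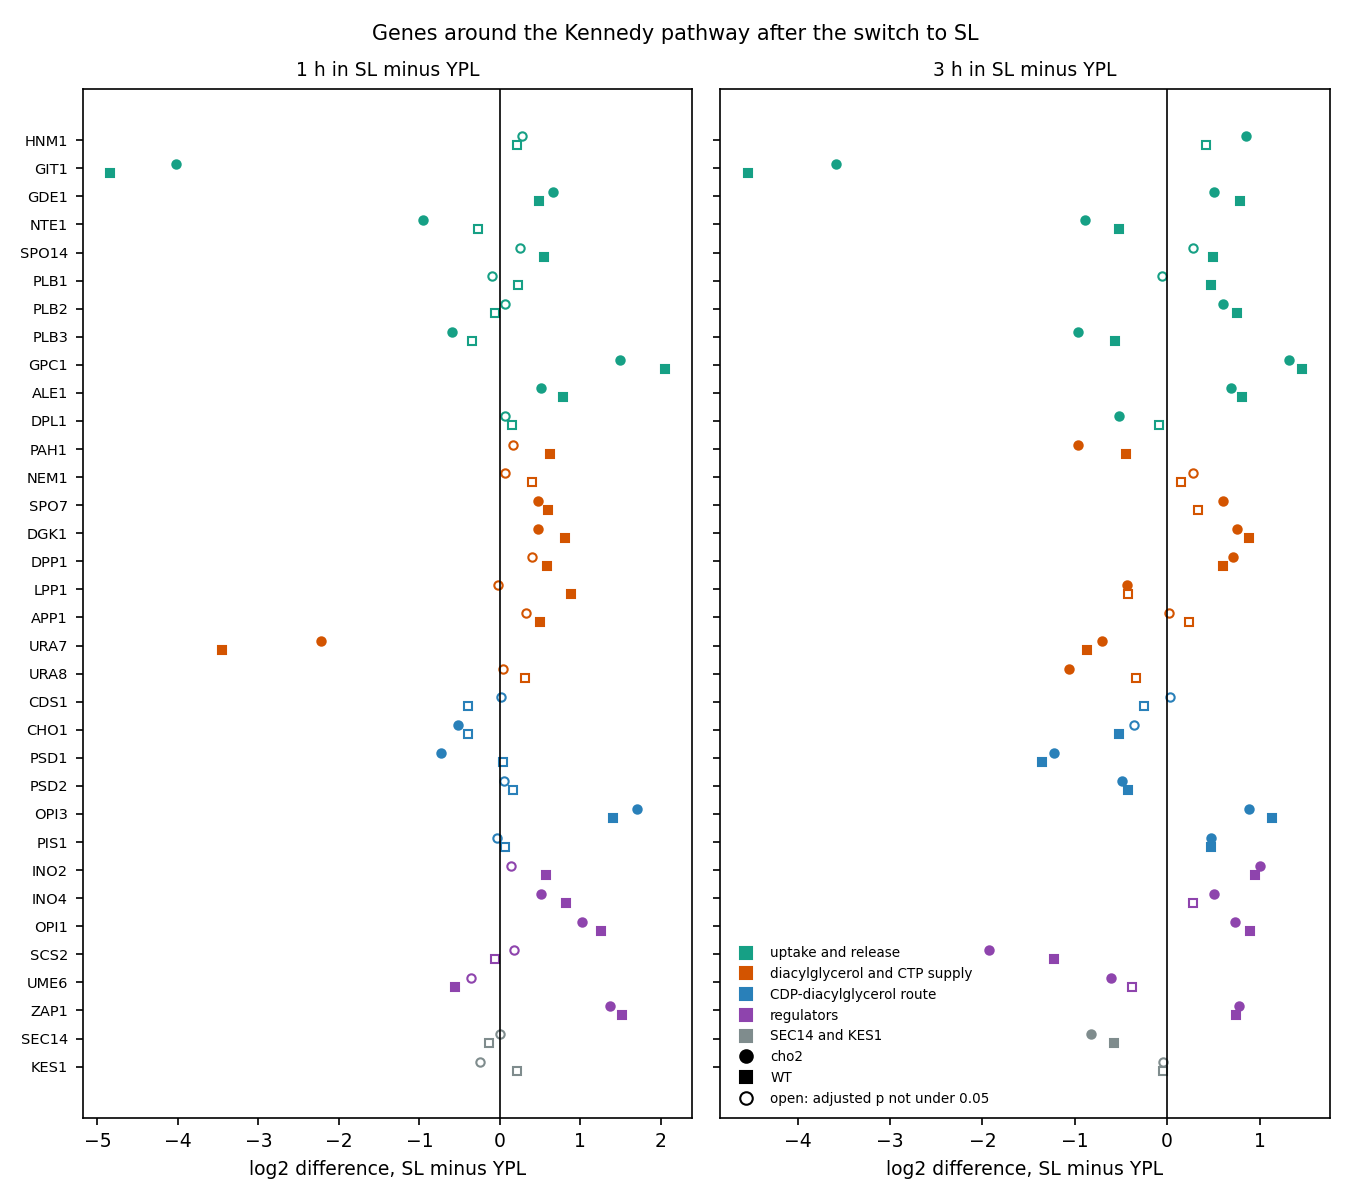
Log2 difference from YPL at 1 h (left) and 3 h (right) in SL for the genes of 5 lists around the Kennedy pathway; circles are cho2 and squares WT, colours mark the lists, and open points have a limma adjusted p of 0.05 or more. GIT1 and URA7 lie furthest to the left at 1 h (-4.03 and -2.22 in cho2, -4.84 and -3.45 in WT).

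Of the 6 genes of the CDP-diacylglycerol route other than CHO2, OPI3, for the second methyltransferase, rose at 1 h by 1.70 ± 0.16 in cho2 and by 1.41 ± 0.16 in WT (limma adjusted p = 2.7e-09 and 4.6e-08). It was the 1 gene of the 6 that limma called higher at 1 h in either strain, with 2 called lower in cho2 and 0 in WT, against all-gene shares of 25.2% higher and 24.6% lower in cho2 and 33.7% and 23.8% in WT. In WT at 1 h CDS1 and CHO1 each stood at -0.40 (unadjusted p = 0.0488 and 0.0417; limma adjusted p = 0.0791 and 0.069). Both were called lower in WT with TMM scaling in limma and edgeR, and by DESeq2, which makes 3 called genes of the 6 there, against 1 with the deposited scaling. PSD1, for the mitochondrial phosphatidylserine decarboxylase, stood at 559 ± 62.4 in cho2 and 952 ± 33.7 in WT at 1 h (-0.77 ± 0.18, limma adjusted p = 0.00665), a call lost without the second cho2 or the second WT library at 1 h (adjusted p up to 0.161). At 3 h PSD1 was lower than in YPL, with log2 differences of -1.22 ± 0.18 in cho2 and -1.35 ± 0.18 in WT. At that time 2 of the 6 were higher and 2 lower in cho2, and 2 higher and 3 lower in WT, against 19.8% and 37% of all tested genes in cho2 and 22.9% and 30.8% in WT.

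Of 6 regulators of phospholipid genes, limma called 3 higher and 0 lower at 1 h in cho2, and 4 higher and 1 lower in WT, against all-gene shares of 25.2% and 24.6% in cho2 and 33.7% and 23.8% in WT. At 3 h, 4 were higher and 2 lower in cho2, and 3 higher and 1 lower in WT, against 19.8% and 37% in cho2 and 22.9% and 30.8% in WT. ZAP1, for the zinc-responsive activator known to act on CKI1 and EKI1, rose at 1 h by 1.37 ± 0.18 in cho2 and by 1.52 ± 0.18 in WT (limma adjusted p = 8.8e-07 and 1.6e-07). OPI1, for the repressor of inositol-responsive genes, rose by 1.02 ± 0.19 in cho2 and by 1.26 ± 0.19 in WT (limma adjusted p = 8.7e-05 and 4.7e-06). INO2, for a subunit of the activator of these genes, was higher at 3 h by 1.01 ± 0.20 in cho2 and by 0.95 ± 0.20 in WT (limma adjusted p = 0.00018 and 0.00037). At 3 h INO4 differed by 0.56 between cho2 and WT, which limma with the deposited scaling did not call. It was called higher in cho2 with TMM scaling in limma (0.62, adjusted p = 0.0239), edgeR with TMM (0.64, adjusted p = 0.0199) and DESeq2 (0.65, adjusted p = 0.00232). SCS2, for the membrane protein that holds Opi1 at the endoplasmic reticulum, was lower at 3 h than in YPL, with log2 differences of -1.93 ± 0.21 in cho2 and -1.23 ± 0.21 in WT. It was also lower in cho2 than in WT at 3 h (532 ± 136 in cho2, 927 ± 284 in WT; -0.79 ± 0.21, limma adjusted p = 0.0374), which failed without the second cho2 or the first WT library at 3 h and in 3 other settings (adjusted p up to 0.435).

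INO1, for inositol-phosphate synthase, is the usual readout of these regulators, and it was higher in cho2 at 1 h. At 1 h it stood at 6221 ± 166 in cho2 and 1263 ± 37.3 in WT (2.30 ± 0.16, limma adjusted p = 3.6e-10), with an interaction of 2.58 ± 0.22 (limma adjusted p = 3.2e-08), both held in all 23 settings. At the same time CPT1, which rose by 1.05 in cho2 and 1.02 in WT, had an interaction of 0.04 ± 0.23. At 3 h INO1 stood at 9892 ± 1019 in cho2 and 6682 ± 251 in WT. That strain difference of 0.56 was called by limma but lost in 12 of the 23 settings. From YPL to 3 h INO1 rose in both strains, by 5.28 in cho2 and by 4.43 in WT. SEC14, for the lipid transfer protein whose loss yeast can survive when the choline branch is also lost, was lower at 3 h than in YPL, by log2 differences of -0.82 ± 0.20 in cho2 (limma adjusted p = 0.00125) and -0.57 ± 0.20 in WT (limma adjusted p = 0.0195). The WT call failed in 4 settings, the first WT library in YPL and the second at 3 h left out among them (adjusted p up to 0.342). KES1, whose loss also bypasses SEC14, was not called by limma with the deposited scaling in any contrast. With DESeq2 it was called lower at 1 h than in YPL in cho2 (-0.28, adjusted p = 0.0467) and higher at 3 h than at 1 h in cho2 (0.40, adjusted p = 0.00526), and TMM scaling in limma and edgeR gave the same pair of calls.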

How the data were processed

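Poly-A RNA of 12 libraries was measured, 2 in each of 6 groups taken from the sample titles. The values are normalised gene counts (signal) as deposited. Per the submitters' processing notes, the authors used Bowtie, DESeq and the sacCer2 build. The sources used here do not give versions, the counting tool, the annotation or whether strand was used. All values of a column (100%) were multiples of 1 number to within 0.01 reads, and dividing by it gave the recovered reads; that number lay near 1 in 3 columns.

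The test was limma-trend (limma 3.58.1, R 4.3.3) on log2(value + 1), run on the 6546 genes that reached 10 in 2 or more libraries. One fit held all libraries, with group means and 6 residual degrees of freedom, and gave 11 contrasts. Each contrast was adjusted by Benjamini-Hochberg over the tested genes, at a threshold of 0.05. The fit was also run on simulated data with 200 changed genes, the same spread for all genes and no shifted library. Because these data differ from that setting, the run does not vouch for the p-values given here. The series text speaks of biological replicates but not of separate cultures, so the spread behind the p-values may be technical. No replicate block was used. The R64 table matched 6006 of the 6685 genes, leaving 679, and served for names, coding lengths, overlap and copies (blastn 2.17.0; copies at 95% identity over 50% of the length). Because its build differs, no coordinates or sequences are given.

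The Kennedy pathway genes and the lists were chosen with earlier results of these data known. Named were those 6 genes, genes of the lists that passed in a contrast, CHO2 and INO1, and for each of the 6 the 3 genes with the smallest root mean square difference, among those with a mean of at least 50 and a standard symbol. The alternatives changed 1 choice each: a pseudocount of 5; a filter at 50 or none; scaling by TMM (edgeR 4.0.16) or quantiles; the replicate number as a block; a fit of the compared groups alone. On recovered reads, edgeR's quasi-likelihood test was run with the deposited and with TMM scaling, and DESeq2 1.42.0 with its own size factors. Each library was left out in turn, as were both second 3 h libraries together.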

Additional observations from a re-analysis of the deposited data

How the results depend on the processing

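Over the 6 Kennedy pathway genes and 11 contrasts, the 66 differences were refitted in 23 alternative settings. Of these 1518 values, 1416 kept their side of the threshold and 0 called values changed sign; 69 lost a call and 33 gained 1. Among values called in neither fit, 54 changed sign. Counts of called genes between cho2 and WT were 1 in place of 0 at 1 h with TMM scaling, quantile normalisation, the compared groups alone, edgeR with TMM, DESeq2, and both second 3 h libraries left out. At 3 h they were 0 in place of 1 with a pseudocount of 5, no filter, the compared groups alone, and both second 3 h libraries left out. DESeq2 called 2 genes in place of 4 between 3 h and 1 h in WT. Calls over all tested genes moved as well in the named settings that kept all libraries. Between the strains at 1 h they were 604 in the reported fit and 999 to 1392 in those settings. At 3 h they were 225, against 228 with a pseudocount of 5, 211 with no filter and 38 with the compared groups alone. Between 3 h and 1 h in WT, DESeq2 called 2602 genes in place of 2397. The cause of these moves was not tested. With 1 library left out, the counts between cho2 and WT ranged over 0 to 0 in YPL, 0 to 1 at 1 h and 0 to 1 at 3 h. In cho2 they ranged over 2 to 5 for 1 h against YPL, 4 to 5 for 3 h against YPL and 1 to 5 for 3 h against 1 h, and in WT over 3 to 4, 1 to 4 and 0 to 6. A group left with 1 library is assumed to vary like the others. Of 127 calls among the genes of the other lists and CHO2 and INO1, 74 held in every setting, 53 were lost in at least 1, and 0 changed sign.

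With the replicate number as a replicate block, the counts were those of the unblocked fit: 0, 0 and 1 between the strains, 4, 5 and 3 in cho2 and 4, 4 and 4 in WT. No call of the 6 genes changed. Whether the numbers pair libraries was checked by the correlation of same-numbered deviations, which ran from -0.20 to 0.54 over 15 pairs of groups and exceeded 0.1 in 6. Same-numbered libraries of some groups thus deviated alike, and the reason was not tested. Over all tested genes, the block fit called 301 in place of 225 between cho2 and WT at 3 h, and 36 in place of 27 in YPL. What the shared numbers stand for is not known. The second WT library at 3 h held fewest reads (3166868), which limits the 3 h values.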
